A study of Mus musculus with 12 samples.

Results

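Glycosyltransferases of mucin and N-glycan synthesis were taken as the protein-coding genes of the deposited table whose symbols, mapped from Ensembl identifiers with GENCODE M21, start with Galnt, C1galt1, B3gnt, B3galt, B4galt, Gcnt, Mgat, Fut, St3gal, St6gal or St8sia, without names ending in os or -ps. The rule found 86 genes among 53715, with 85 symbols, since St6galnac2 stands at 2 loci. Of these, 71 had enough reads to be tested. The filter on low counts removed 11 (B3gnt4, Fut7, Fut9, Galnt9, Galnt14, Galntl5, Mgat5b, St6gal2, St6galnac5, St8sia1 and St8sia2), and 4 were listed at 0 in all 12 libraries (Mgat4d, Mgat4e, St6galnac1 and St8sia5). St6galnac1, which makes sialyl-Tn, is known from intestinal mucosa, and whether its 0 comes from the annotation or the counting was not settled, so sums and shares of sialylation below are without it. Prefixes are broader than the name of the set: B3galt6 and B4galt7 build the linker of proteoglycans, and B3gnt5, B4galt6 and St3gal5 act on glycolipids.

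Mucins and other secreted or membrane glycoproteins acquire their glycans mostly in the Golgi. An O-glycan starts when a Galnt enzyme attaches N-acetylgalactosamine (GalNAc) to serine or threonine, is extended to core 1 or core 3, branched by Gcnt enzymes, lengthened by galactose and N-acetylglucosamine (GlcNAc), and capped with sialic acid or fucose. N-glycans arrive preassembled and are branched by Mgat enzymes before the same extension and capping. Many of these enzymes, Galnt, B4galt and Mgat members among them, hold manganese in the active site, and SLC39A8 carries manganese into cells.

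RNA of ileal and colonic mucosa came from 8-week-old male C57BL/6J mice. Control mice were homozygous for a floxed Slc39a8 allele by their labels (Slc39a8-fl/fl), while the methods of the study count floxed mice, wild-type mice and Vil-Cre carriers alike as controls. The Slc39a8-IEC KO mice (KO below) carried the same floxed alleles and Villin-Cre, which deletes in intestinal epithelial cells but not in other mucosal cells. Each tissue and genotype had 3 libraries, from cDNA primed with oligo-dT.

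The libraries held 16749138 to 27903083 expected counts, of which 0.507% to 0.638% fell on the glycosyltransferases. The ileal libraries of control mouse 3 and KO mouse 1 stood apart, with 45.9 and 29.2 CPM (counts divided by the scaled library size, on a common scale) summed over 8 smooth muscle markers, where the other 4 ileal libraries had 1912 to 2772. In ileum KO 2 the summed colonic epithelium markers reached 3144 CPM, against 271 to 675 in the other ileal libraries and 15980 to 28440 in colon. Of this sum 2632 CPM was Car1 alone, and Aqp8 was at 67.3 against 0 to 0.36 in the other ileal libraries, while Car4, Ms4a12 and B3gnt6 lay inside their range. Epithelial markers summed to 19450 to 24170 CPM in ileum and 9839 to 11120 in colon, and 8 of 10 were lower in colon in both genotypes. In RNA of whole mucosa, fewer cells of a type and less RNA per cell cannot be told apart. No batch or date is given in the labels.

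Slc39a8, the targeted gene, was measured at 8.39, 5.22 and 6.59 CPM in ileum of control mice and at 4.35, 2.62 and 2.80 in ileum of KO mice. In colon it was at 20.8, 20.5 and 20.1 CPM in control mice and at 7.35, 11.5 and 7.93 in KO mice. The groups did not overlap in either tissue. The log2 difference over both tissues was -1.13 ± 0.17 (SE), with an edgeR adjusted p of 0.382 over 16558 genes. An exact two-sided permutation of genotype within tissue gave p = 0.005, the smallest that 400 arrangements allow. These arrangements take ileal and colonic libraries as different mice, which is not stated. If the tissues share mice, no exact p below 0.1 is possible. With DESeq2 the adjusted p was 1.25e-05 and with limma-voom 0.0729. Without ileum control 3 and ileum KO 1 it was 0.0194 in edgeR.

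The levels of the enzymes within a step were compared per transcript length, as TPM (counts per kilobase of merged exons, scaled to the same sum in each library). Sialylation differed in level between the tissues: its 21 members summed to 1217 ± 134 TPM (SD, n = 3) in ileum of control mice and 1373 ± 78.7 in ileum of KO mice, but to 529 ± 142 and 553 ± 80.0 in colon. St3gal4, which adds α2,3-linked sialic acid to galactose, made up 97.1% ± 0.98 of the ileal sum in control mice and 42.3% ± 10.8 of the colonic sum. St6galnac6, an α2,6-sialyltransferase that acts on GalNAc or GlcNAc of already sialylated chains, took 43.4% ± 8.88 of the colonic sum and 0.22% ± 0.05 of the ileal one. At the branching step of O-glycans the sum was 155 ± 29.1 TPM in ileum and 363 ± 51.7 in colon of control mice, and Gcnt3, the core 2 and core 4 enzyme of mucous epithelia, held 60.1% ± 8.23 and 88.3% ± 1.66 of it. Core 1 synthesis summed to 148 ± 38.2 and 309 ± 6.86 TPM, and β1,3-galactosylation to 23.3 ± 12.7 and 130 ± 39.8. By contrast, the sums for O-GalNAc initiation, 394 ± 101 and 420 ± 45.4 TPM, overlapped between tissues. In RNA, ileum and colon thus differed in the shares of members within a group and, for some groups, in its sum. Sialylation pools enzymes of different linkages, so its shares do not show 1 enzyme in place of another at the same reaction.

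**Figure D1:**
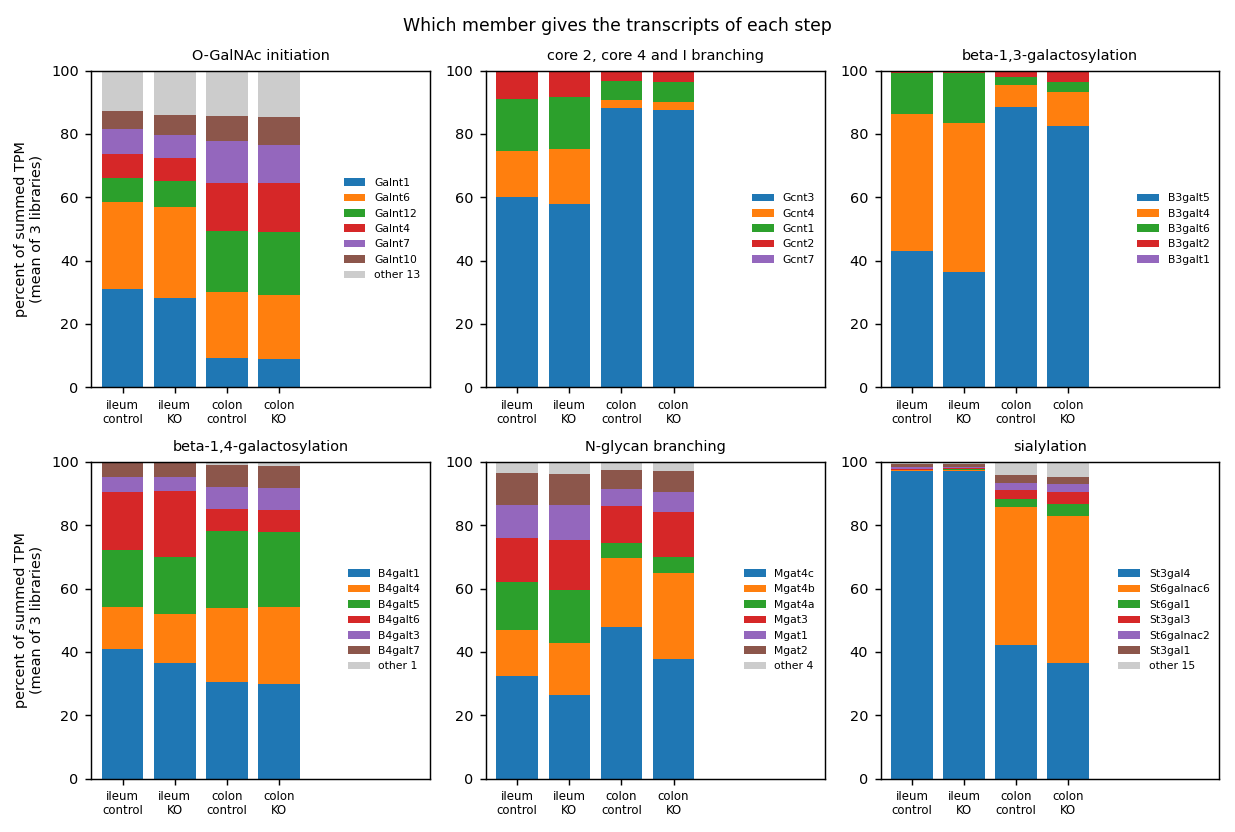
Each bar gives the percent of a step's summed TPM (mean of 3 libraries) held by each member, for 6 steps and the 4 tissue and genotype groups, with members beyond the first 6 in grey. St3gal4 fills the ileal sialylation bars and shares the colonic ones with St6galnac6 in both genotypes. In N-glycan branching of colon, Mgat4c held 48.0% ± 2.87 (SD) in control and 37.7% ± 2.75 in KO mice. Mgat4b held 21.8% ± 0.75 and 27.3% ± 1.91. Neither gene passed between genotypes.

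Over all steps, the member with the most transcripts per length in ileum was St3gal4, at a mean of 1259 TPM over both genotypes. B3gnt3, which extends core 1 with GlcNAc, followed at 131 TPM, Mgat4c, of the Mgat4 family of N-glycan branching, at 125, Galnt6 at 121 and Galnt1 at 121. In colon, Gcnt3 led with 350 TPM, followed by Mgat4c with 254, St6galnac6 with 239, St3gal4 with 219 and C1galt1c1, the chaperone of core 1 synthase, with 193. Among β1,4-galactosyltransferases B4galt1 led in both tissues, at 77.0 TPM in ileum and 47.6 in colon, and in colon Fut2, which makes the H antigen, led fucosylation with 58.5 TPM and B3galt5, a β1,3-galactosyltransferase of type 1 chains, led its step with 109. In ileum no leader of these last steps held across genotypes. Fut2 was at 26.5 ± 31.9 TPM in control and 11.7 ± 7.99 in KO mice, beside Fut8 at 13.2 ± 1.98 and 12.5 ± 0.90 and Fut4 at 10.9 ± 6.59 and 12.2 ± 2.55. B3galt5 was at 12.1 ± 14.4 and 8.72 ± 7.22 TPM, beside B3galt4, which acts on gangliosides, at 8.40 ± 4.27 and 10.4 ± 3.25. The order of these members in ileum was within their spread. Counts do not tell whether an enzyme is active.

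The comparison of colon with ileum asked which enzymes are regional. In control mice 34 of 71 tested members (47.9%) passed an edgeR adjusted p of 0.1, against 35.9% of all 16558 genes tested. Of them, 23 were higher in colon (32.4%, against 16.2% of all genes) and 11 lower (15.5%, against 19.6%). In KO mice, whose 6 libraries are not part of the control comparison except through the shared estimate of spread, 36 members passed (50.7%, against 37.1% of all genes), 25 higher (35.2%, against 17.1%) and 11 lower (15.5%, against 20%). Passing in both genotypes in the same direction were 31 members (21 higher and 10 lower in colon), where 29.3% of all genes did so, and no member passed in opposite directions (0.00604% of all genes). The 3 libraries of each tissue did not overlap for 26 higher and 11 lower members in control mice (20.3% and 20.4% of all genes), and for 34 and 13 in KO mice (25.5% and 24.9%, or 50.4% in either direction). The median log2 difference of the members was 0.32 in control and 0.29 in KO mice, and over all genes it was 0.02 and 0.01. The members that passed in control mice alone were Galnt10, Fut4 and Fut11, and in KO mice alone B3gnt9, Fut8, St8sia3, St6galnac2 and St8sia4. For none of the 71 did the difference between the genotypes pass a test of its own.

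**Figure D2:**
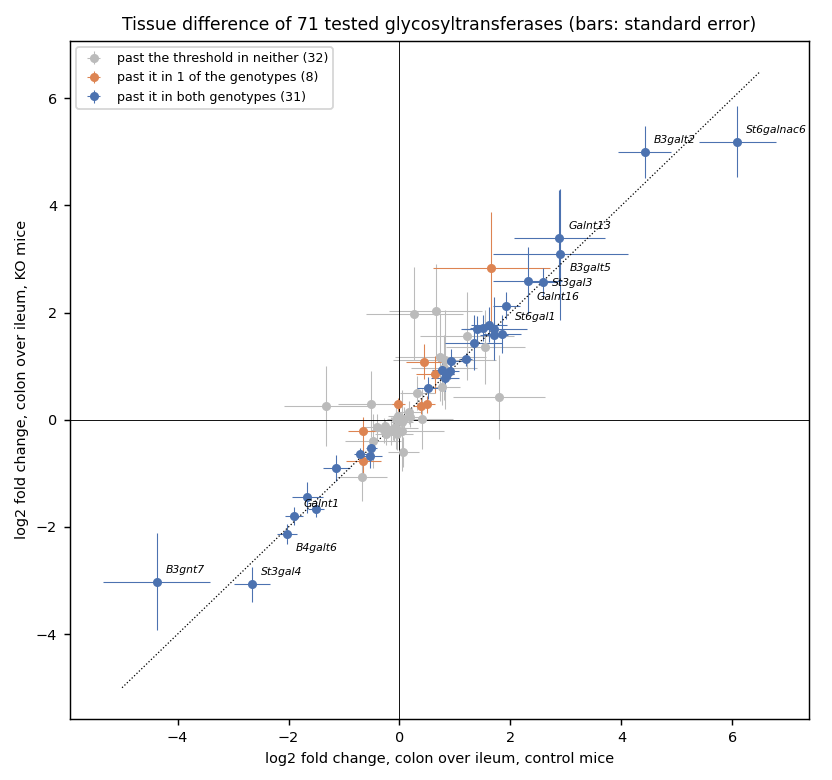
The log2 fold change of colon over ileum in control mice (x axis) is plotted against that in KO mice (y axis) for 71 members, with standard errors as bars and the line of equal values dotted. The 31 members past the threshold in both genotypes (blue) lie near the line, with St6galnac6 and B3galt2 at its upper end and B3gnt7 and St3gal4 at its lower end.

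Among the enzymes that start O-glycans, 10 of 16 tested passed in control mice, 8 higher and 2 lower in colon, and in KO mice 9 passed, 7 higher and 2 lower (62.5% and 56.2%, against 35.9% and 37.1% of all genes). Galnt1, a widely expressed initiator, was at 410, 322 and 281 CPM in ileum of control mice, 268, 344 and 367 in ileum of KO mice, 94.3, 84.1 and 93.6 in colon of control mice and 97.2, 89.5 and 96.1 in colon of KO mice. Every ileal library was above every colonic one, and the log2 difference was -1.90 ± 0.17 (edgeR adjusted p = 8.94e-06) in control and -1.79 ± 0.17 (1.44e-05) in KO mice. Galnt6 was the other member lower in colon, by -0.53 ± 0.22 (adjusted p = 0.0893) and -0.68 ± 0.22 (0.036). Without ileum control 3 and ileum KO 1, Galnt6 was at -0.32 ± 0.15 in control mice (adjusted p = 0.112).

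Galnt12, which is active in the digestive tract, was higher in colon, with 30.7 to 41.1 CPM in the 6 ileal and 74.0 to 88.4 in the 6 colonic libraries. Its log2 difference was 1.20 ± 0.12 (edgeR adjusted p = 2.42e-05) in control and 1.13 ± 0.12 (3.67e-05) in KO mice. Galnt4, which prefers peptides that already carry GalNAc, rose from 61.7 to 94.7 CPM in ileum to 131 to 164 in colon, by 0.91 ± 0.16 (0.00114) and 0.91 ± 0.16 (0.00112). The groups of both tissues did not overlap for Galnt12 and Galnt4.

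Galntl6 (chr8:57774052-58912640, minus strand) and Galnt15 (chr14:32028989-32062197, plus strand, both in GENCODE M21 on GRCm38 like the positions of genes below) were at the low end. Galntl6 was at 1.07, 1.72 and 1.15 CPM in ileum of control mice and 0.95, 1.41 and 0.76 in ileum of KO mice. In colon it was at 5.48, 4.56 and 4.14 CPM and at 2.12, 3.99 and 3.45. The colonic libraries were all above the ileal ones, with log2 differences of 1.84 ± 0.35 (edgeR adjusted p = 0.00215) and 1.60 ± 0.35 (0.00523). Galnt15 was at 0.80, 1.06 and 0.30 CPM in ileum of control mice, 0.24, 1.45 and 0.52 in ileum of KO mice, 1.49, 2.88 and 2.59 in colon of control mice and 2.40, 2.23 and 2.78 in colon of KO mice. Here the highest ileal value was just below the lowest colonic one, and the differences of 1.71 ± 0.60 (0.053) and 1.70 ± 0.59 (0.0489) rested on single libraries. The call was lost in control mice without ileum control 3 (1.29 ± 0.59, 0.131), colon control 2 (1.52 ± 0.68, 0.146) or colon control 3 (1.60 ± 0.67, 0.125), and in KO mice without ileum KO 1 (1.31 ± 0.56, 0.115), ileum KO 3 (1.498 ± 0.68, 0.148) or colon KO 3 (1.62 ± 0.66, 0.11). Without ileum KO 2 the KO value was 2.66 ± 0.60 (0.00969).

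**Figure D3:**
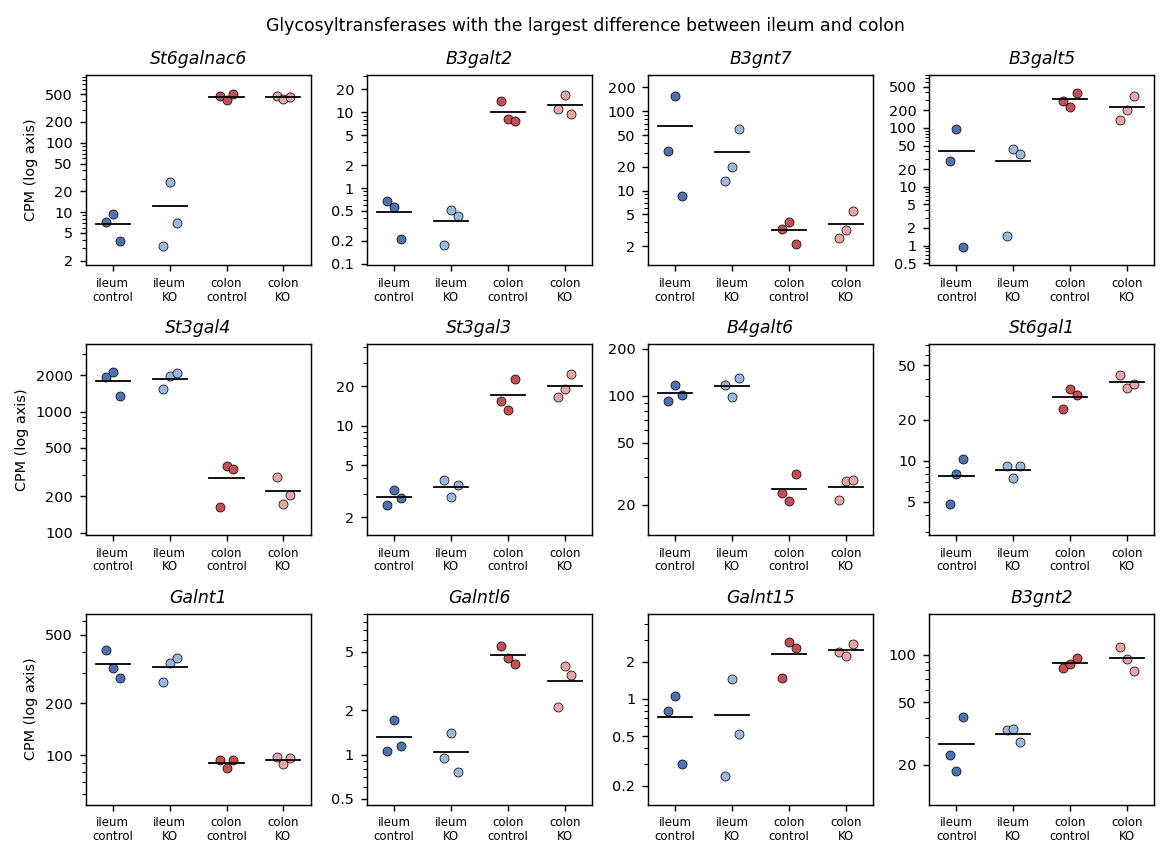
CPM on a log axis in each of the 12 libraries (points) with the group mean (line) for the 12 members with the largest differences between tissues. Colonic points lie apart from ileal points of the same genotype in every panel, and B3galt5, B3gnt7, Galnt15 and St6galnac6 show the widest spread within ileum.

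Both genes of core 1 synthesis were higher in colon in each genotype (2 of 2, against 16.2% of all genes in control and 17.1% in KO mice). C1galt1, the core 1 synthase, was at 118 to 198 CPM in the ileal and 231 to 296 in the colonic libraries, a log2 difference of 0.77 ± 0.18 (edgeR adjusted p = 0.0071) in control and 0.93 ± 0.18 (0.00227) in KO mice. C1galt1 was named after its value was seen. Its chaperone C1galt1c1, on chromosome X, was at 47.6 to 109 CPM in ileum and 86.5 to 159 in colon, by 0.83 ± 0.25 (0.0297) and 0.79 ± 0.25 (0.0368). Within each genotype the tissues did not overlap for either gene. The call of C1galt1c1 was lost without colon control 1 (0.66 ± 0.27, 0.113) in control mice and without ileum KO 1 (0.67 ± 0.28, 0.109) or colon KO 2 (0.74 ± 0.29, 0.105) in KO mice.

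B3gnt6 (chr7:98192417-98199481), the core 3 synthase of colonic mucins, was at 6.26, 6.72 and 5.40 CPM in ileum and 17.1, 18.4 and 12.7 in colon of control mice. In KO mice it was at 6.20, 6.72 and 9.24 CPM in ileum and 22.0, 19.5 and 30.6 in colon. All colonic libraries were above all ileal ones, and the log2 difference was 1.39 ± 0.23 (edgeR adjusted p = 0.000938) in control and 1.70 ± 0.23 (0.000228) in KO mice.

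Of 5 branching enzymes of O-glycans, 2 passed in each genotype, in opposite directions (40%, against 35.9% and 37.1% of all genes). Gcnt3 was at 157, 288 and 180 CPM in ileum of control mice, 154, 238 and 169 in ileum of KO mice, 597, 565 and 613 in colon of control mice and 613, 694 and 534 in colon of KO mice. Its lowest colonic library was above its highest ileal one, with log2 differences of 1.51 ± 0.24 (edgeR adjusted p = 0.000635) and 1.71 ± 0.24 (0.000266). Gcnt4, a core 2 enzyme, was lower in colon, with 49.2 to 69.7 CPM in the ileal and 11.01 to 29.3 in the colonic libraries, by -1.66 ± 0.29 (0.00122) and -1.45 ± 0.28 (0.00275). Gcnt1, the widespread core 2 enzyme, was at 26.4 to 109 CPM in ileum and 40.7 to 69.3 in colon and did not pass in either genotype. Without ileum control 3 and ileum KO 1, the libraries in which Gcnt1 was at 29.8 and 26.4 CPM, it was lower in colon by -0.87 ± 0.21 (0.0071) and -0.80 ± 0.21 (0.0112). Gcnt2, which makes the I branch, was lower by -0.54 ± 0.22 (0.0844) in control mice under the same omission and was at -0.41 (0.229) with all libraries.

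The sequences in front of 4 regional genes are shown because members higher and lower in colon can be set side by side there. They are the 250 bases before the RefSeq start farthest upstream (GRCm38.p6), for 2 named members each way. The windows shown hold no exon annotated in GENCODE M21. These members are not those with the largest differences. For example, B4galt6 and Galnt1 differed more than the 2 members shown as lower in colon. The exon condition was not the only one. B4galt6 and Galnt1 were left out by hand for their place in the genome, whether or not their windows hold an exon. B3galt5 (chr16:96235551-96235800, plus strand) and St3gal3 (chr4:118134947-118135196, minus strand) were higher in colon, and Gcnt4 (chr13:96924094-96924343, plus strand) and Mgat4a (chr1:37541017-37541266, minus strand) were lower. Capitals mark letters of 6 motifs searched on both strands, which are TTTATG for the caudal-type factors CDX, then CAAAGT for the nuclear receptor HNF4, then GTTAAT for the homeodomain factor HNF1, then AGATAA for zinc-finger factors of the GATA family, then GGGCGG for the widespread Sp/KLF factors and last TATAAA for the core promoter TATA box. RefSeq windows were found for 63 of 85 member symbols.
B3galt5: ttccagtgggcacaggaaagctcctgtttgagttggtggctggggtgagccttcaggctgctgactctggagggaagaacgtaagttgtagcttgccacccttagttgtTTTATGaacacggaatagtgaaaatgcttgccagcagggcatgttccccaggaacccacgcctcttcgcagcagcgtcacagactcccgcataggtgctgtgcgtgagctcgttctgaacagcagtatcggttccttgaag
St3gal3: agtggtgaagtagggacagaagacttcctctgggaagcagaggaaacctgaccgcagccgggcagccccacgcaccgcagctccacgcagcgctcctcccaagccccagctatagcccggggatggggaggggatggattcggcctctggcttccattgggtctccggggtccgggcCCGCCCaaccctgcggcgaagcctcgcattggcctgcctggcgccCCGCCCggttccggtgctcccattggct
Gcnt4: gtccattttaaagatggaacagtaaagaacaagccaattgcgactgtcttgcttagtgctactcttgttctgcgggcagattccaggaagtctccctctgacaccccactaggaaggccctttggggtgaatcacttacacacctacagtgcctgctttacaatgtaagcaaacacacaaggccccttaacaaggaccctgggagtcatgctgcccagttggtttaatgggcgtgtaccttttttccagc
Mgat4a: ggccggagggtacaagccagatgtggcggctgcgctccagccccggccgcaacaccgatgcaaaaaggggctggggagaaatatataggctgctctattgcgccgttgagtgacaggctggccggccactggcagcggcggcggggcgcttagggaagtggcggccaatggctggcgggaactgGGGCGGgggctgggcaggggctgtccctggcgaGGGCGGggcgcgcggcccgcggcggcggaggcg
The B3galt5 window held 1 CDX match, St3gal3 and Mgat4a held 2 Sp/KLF matches each and Gcnt4 held none. Their GC contents were 54%, 68.4%, 72.4% and 48.8% in the order B3galt5, St3gal3, Mgat4a and Gcnt4. Over 32851 windows of all genes, 10.8% held the CDX letters, 12.6% those of HNF4, 6.43% those of HNF1, 9.99% those of GATA, 32.7% those of Sp/KLF and 12.4% the TATA box. Over the 89 windows of members the shares were 6.74%, 11.2%, 1.12%, 10.1%, 49.4% and 3.37%. A match is a description of letters and not of a bound site.

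In extension with GlcNAc, 2 of 7 tested members passed in control mice, 1 in each direction, and 3 in KO mice, 2 higher and 1 lower in colon (28.6% and 42.9%, against 35.9% and 37.1% of all genes). B3gnt7 (chr1:86302832-86307305), which extends keratan-sulfate-like poly-N-acetyllactosamine, was at 32.0, 156 and 8.67 CPM in ileum of control mice and 13.1, 19.9 and 58.9 in ileum of KO mice. In colon it was at 3.33, 4.03 and 2.12 CPM in control and 2.50, 3.16 and 5.60 in KO mice. No ileal library fell into the colonic range, although ileal values ranged from 8.67 to 156, and the log2 difference was -4.37 ± 0.96 (edgeR adjusted p = 0.00572) in control and -3.02 ± 0.91 (0.0282) in KO mice. Ileum control 2 carried much of the first value, which was -2.68 ± 0.69 (0.0182) without it. In KO mice the call was lost without ileum KO 3 (-2.13 ± 0.88, 0.113) and with limma-voom (-2.80 ± 1.25, 0.115).

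B3gnt2, the main poly-N-acetyllactosamine synthase, was at 23.0, 18.4 and 40.3 CPM in ileum of control mice, 33.3, 33.7 and 27.8 in ileum of KO mice, 83.0, 87.8 and 95.3 in colon of control mice and 111, 94.6 and 79.4 in colon of KO mice. The tissues did not overlap, with log2 differences of 1.70 ± 0.25 (edgeR adjusted p = 0.000388) and 1.59 ± 0.25 (0.000598). It shares 58.6% of its exon bases with Gm28048 on the same strand. With the counts of both genes added, the differences were 1.60 ± 0.18 (5.93e-05) and 1.55 ± 0.18 (7.78e-05). B3gnt3, the most counted member of this step, differed by -0.12 ± 0.17 (0.636) and -0.21 ± 0.17 (0.4) and did not pass.

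In β1,3-galactosylation 2 of 5 tested members passed in each genotype, both higher in colon (40%, against 35.9% of all genes in control and 37.1% in KO mice). B3galt2 (chr1:143640664-143654614) was at 0.67, 0.56 and 0.21 CPM in ileum of control mice and 0.18, 0.51 and 0.43 in ileum of KO mice. In colon it was at 14.1, 8.20 and 7.63 CPM in control and 11.1, 16.7 and 9.55 in KO mice. The tissues were far apart, and the log2 differences were 4.42 ± 0.47 (edgeR adjusted p = 4.11e-05) and 5.0 ± 0.48 (1.92e-05). Of its exon bases, 7.31% overlap Cdc73 on the opposite strand, and no source used here gives the strand setting of the counting.

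B3galt5 (chr16:96235801-96319859) was at 27.4, 94.3 and 0.93 CPM in ileum of control mice and 1.43, 43.7 and 35.5 in ileum of KO mice, and at 287, 231 and 397 in colon of control mice and 138, 204 and 347 in colon of KO mice. Colonic libraries were all above ileal ones, but the 2 ileal libraries with few muscle transcripts lay far below the other 4. The log2 differences were 2.90 ± 1.21 (edgeR adjusted p = 0.0982) in control and 3.09 ± 1.22 (0.0805) in KO mice, just past the threshold. In control mice the call was lost when any 1 library other than ileum control 2 or ileum KO 1 was left out (adjusted p 0.1 to 0.202), and in KO mice when any 1 library other than the 3 of ileum control was left out (0.101 to 0.174). Without ileum control 2 the control value was 4.45 ± 1.43 (0.0459). The control call was also lost with the replicate block (3.21 ± 1.31, 0.107), the block within genotype (3.90 ± 1.49, 0.145) and the 6 libraries of the comparison alone (2.92 ± 1.14, 0.117). Without ileum control 3 and ileum KO 1 they were 2.31 ± 0.50 (0.00396) and 2.54 ± 0.51 (0.0024).

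In β1,4 linkage, 2 of 7 members passed in each genotype, both lower in colon (28.6%, against 35.9% and 37.1% of all genes). B4galt6, a lactosylceramide synthase, was at 92.1, 118 and 101 CPM in ileum of control mice, 116, 97.9 and 131 in ileum of KO mice, 23.8, 21.01 and 31.4 in colon of control mice and 21.5, 28.2 and 28.7 in colon of KO mice. The tissues were far from overlapping, with log2 differences of -2.03 ± 0.19 (edgeR adjusted p = 1.28e-05) and -2.14 ± 0.19 (9.07e-06). B4galt1, the main β1,4-galactosyltransferase of N-glycans, was at 112 to 257 CPM in ileum and 73.1 to 88.7 in colon, by -1.14 ± 0.25 (0.00503) and -0.89 ± 0.24 (0.018).

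In N-glycan branching, 4 of 7 members passed in each genotype, 3 lower and 1 higher in colon (57.1%, against 35.9% and 37.1% of all genes). Mgat1, which opens complex N-glycan synthesis, was lower by -0.70 ± 0.11 (edgeR adjusted p = 0.000693) in control and -0.64 ± 0.11 (0.00135) in KO mice. Mgat2, which adds the next branch, was lower by -0.51 ± 0.09 (0.0021) and -0.52 ± 0.09 (0.00179). Both were named after their values were seen, as the remaining members called in this step.

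Mgat4a and Mgat4b, which add a β1,4-linked branch, went opposite ways. Mgat4a fell from 393 to 486 CPM in ileum to 126 to 173 in colon, by -1.50 ± 0.14 (edgeR adjusted p = 1.6e-05) in control and -1.66 ± 0.14 (7.85e-06) in KO mice. Mgat4b was higher in colon, at 142 to 186 CPM against 65.0 to 99.6, by 0.86 ± 0.13 (0.000404) and 0.86 ± 0.13 (0.000405). In both cases no library of one tissue entered the range of the other. Mgat4c was at 400 to 1143 CPM in ileum and 842 to 1364 in colon, and its differences of 0.77 ± 0.33 (0.105) and 0.61 ± 0.33 (0.187) did not pass. Mgat3, which adds the bisecting GlcNAc, differed by 0.04 ± 0.20 (0.905) and -0.03 ± 0.20 (0.922), and Mgat5, of the β1,6 branch, by -0.24 ± 0.21 (0.427) and -0.26 ± 0.21 (0.372).

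Sialylation held the members with the largest and the most counted regional differences. St6galnac6 (chr2:32599709-32620806) was at 7.19, 9.39 and 3.82 CPM in ileum of control mice and 3.28, 27.0 and 7.06 in ileum of KO mice. In colon it was at 472, 411 and 500 CPM in control and 480, 432 and 462 in KO mice. The colonic values were close to each other and all far above the ileal ones, with log2 differences of 6.09 ± 0.69 (edgeR adjusted p = 6.43e-05, 68.1-fold) and 5.19 ± 0.66 (0.000146, 36.5-fold). The highest ileal value came from ileum KO 2, the library with high Car1 and Aqp8, and the part of colonic epithelium in that value was not tested. Without that library the difference in KO mice was 6.46 ± 0.47 (6.71e-06, 87.8-fold).

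St6galnac4, which also adds sialic acid to the GalNAc of sialylated core 1, ends 10 bases before St6galnac6 on the same strand of chromosome 2. It was at 1.80 to 3.91 CPM in ileum and 6.402 to 11.6 in colon, by 1.61 ± 0.32 (edgeR adjusted p = 0.00335) in control and 1.78 ± 0.33 (0.00182) in KO mice. St6galnac2 is listed at 2 overlapping loci on chromosome 11. The second locus, at 0.50 to 1.73 CPM in ileum and 1.41 to 3.58 in colon, differed by 1.34 ± 0.51 (0.0737) and 1.44 ± 0.51 (0.0557), while the first, at 11.7 to 30.2 and 25.0 to 36.2 CPM, differed by 0.65 ± 0.34 (0.187) and 0.85 ± 0.34 (0.0862). The call of the second locus was lost in control mice without ileum control 1 or 2, colon control 1 or 2 or any 1 colon KO library (adjusted p 0.101 to 0.225), and in KO mice without ileum KO 2 or 3 or any 1 colon KO library (0.107 to 0.17). Without ileum KO 1 its KO value was 2.04 ± 0.52 (0.0163). How reads were divided between the 2 loci is not given.

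St3gal4 (chr9:35046576-35119268) ran the other way. It was at 1940, 2114 and 1334 CPM in ileum of control mice, 1546, 1967 and 2082 in ileum of KO mice, 163, 355 and 335 in colon of control mice and 289, 173 and 206 in colon of KO mice. The lowest ileal library was far above the highest colonic one, and the log2 differences were -2.66 ± 0.32 (edgeR adjusted p = 9.9e-05, 6.32-fold) and -3.07 ± 0.33 (3.88e-05, 8.38-fold). Among the exon bases of St3gal4, 14.1% overlap 4930581F22Rik on the opposite strand.

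St3gal3, which caps type 1 and type 2 chains, was at 2.46, 3.22 and 2.80 CPM in ileum of control mice, 3.82, 2.85 and 3.51 in ileum of KO mice, 15.3, 13.2 and 22.7 in colon of control mice and 16.5, 19.0 and 24.9 in colon of KO mice. St6gal1, which caps N-glycans with α2,6-linked sialic acid, was at 4.79, 7.999 and 10.3 CPM in ileum of control mice, 9.18, 7.50 and 9.24 in ileum of KO mice, 23.9, 33.9 and 30.5 in colon of control mice and 42.8, 34.2 and 36.3 in colon of KO mice. Neither gene overlapped between tissues. The log2 differences were 2.59 ± 0.26 (edgeR adjusted p = 2.16e-05) and 2.57 ± 0.25 (2.18e-05) for St3gal3 and 1.93 ± 0.25 (0.000161) and 2.13 ± 0.25 (7.87e-05) for St6gal1. St3gal6 was higher by 0.94 ± 0.23 (0.0115) and 1.10 ± 0.23 (0.00474), with 26% of its exon bases on the opposite strand of Dcbld2. In all, 7 of 15 tested sialyltransferases passed in control mice, 6 higher and 1 lower, and 10 in KO mice, 8 higher and 2 lower (46.7% and 66.7%, against 35.9% and 37.1% of all genes).

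In fucosylation, 2 of 6 tested members passed in control and 1 in KO mice (33.3% and 16.7%, against 35.9% and 37.1% of all genes). Fut2 was at 43.9, 185 and 6.29 CPM in ileum of control mice and 11.6, 25.9 and 56.3 in ileum of KO mice, but at 112, 150 and 106 in colon of control mice and 116, 114 and 156 in colon of KO mice. One ileal control library exceeded all colonic ones, and the log2 differences of 0.65 ± 0.84 (edgeR adjusted p = 0.597) and 2.04 ± 0.87 (0.102) did not pass. Without ileum control 3 and ileum KO 1 the difference in KO mice was 1.66 ± 0.49 (0.0218). Fut4, an α1,3-fucosyltransferase, was lower in colon of control mice by -0.66 (0.0848) with all libraries and by -0.25 ± 0.17 (0.284) without these 2. Fut8, which adds core fucose to N-glycans, was higher in colon of KO mice by 0.29 ± 0.12 (0.0872) and at 0.26 ± 0.14 (0.165) without them.

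Like genes in general, many members spread widely among the ileal libraries. In control 3 and KO 1, 40 of 71 members lay outside the range of the other 4 ileal libraries, 27 below it (38%, against 27.2% of all genes tested) and 13 above it (18.3%, against 23.2%). B3galt5, at 0.93 and 1.43 CPM against 27.4 to 94.3, and Fut10, at 0.04 and 0.06 against 0.9999 to 1.997, were among those below. Gcnt1, at 29.8 and 26.4 CPM against 90.8 to 109, and Mgat4c, at 400 and 414 against 665 to 1143, were too. Galnt6, at 275 and 310 CPM against 180 to 202, Mgat5, at 100.1 and 102 against 55.9 to 83.5, and St6galnac2, at 30.2 and 25.2 against 11.7 to 16.0, lay above. These examples were chosen after their values were seen. Markers of smooth muscle and of stroma and endothelium are low in the same 2 libraries, the latter at 51.1 and 47.2 CPM summed against 320 to 602. Other cell types differed there too. B and plasma cell markers summed to 587.5 and 592.7 CPM against 842 to 1342. Those of T cells and macrophages summed to 74.2 and 74.1 against 139 to 172. Paneth cell markers were higher, at 18130 and 14630 CPM against 6045 to 10350, and goblet cell markers at 17320 and 17580 against 14480 to 15350. The part of these cell types in the values of the members was not tested. Because 1 library of each genotype is concerned, the tissue calls that change without both are given beside each member above or here: Galnt5 (0.86 ± 0.17, edgeR adjusted p = 0.00195), Galnt11 (0.44 ± 0.15, 0.0345), Galnt18 (1.09 ± 0.46, 0.0933), St8sia4 (-0.74 ± 0.32, 0.0994), St6galnac3 (-1.84 ± 0.49, 0.0128) and St6galnac2 (1.20 ± 0.18, 0.000372) passed only then in control mice. In KO mice Galnt10 (0.45 ± 0.12, 0.0113), Galnt5 (0.71 ± 0.16, 0.00521), St3gal2 (0.56 ± 0.23, 0.0836), Galnt17 (1.60 ± 0.52, 0.031), Galnt11 (0.36 ± 0.14, 0.0739) and Galnt2 (-0.67 ± 0.28, 0.0879) did.

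**Figure D4:**
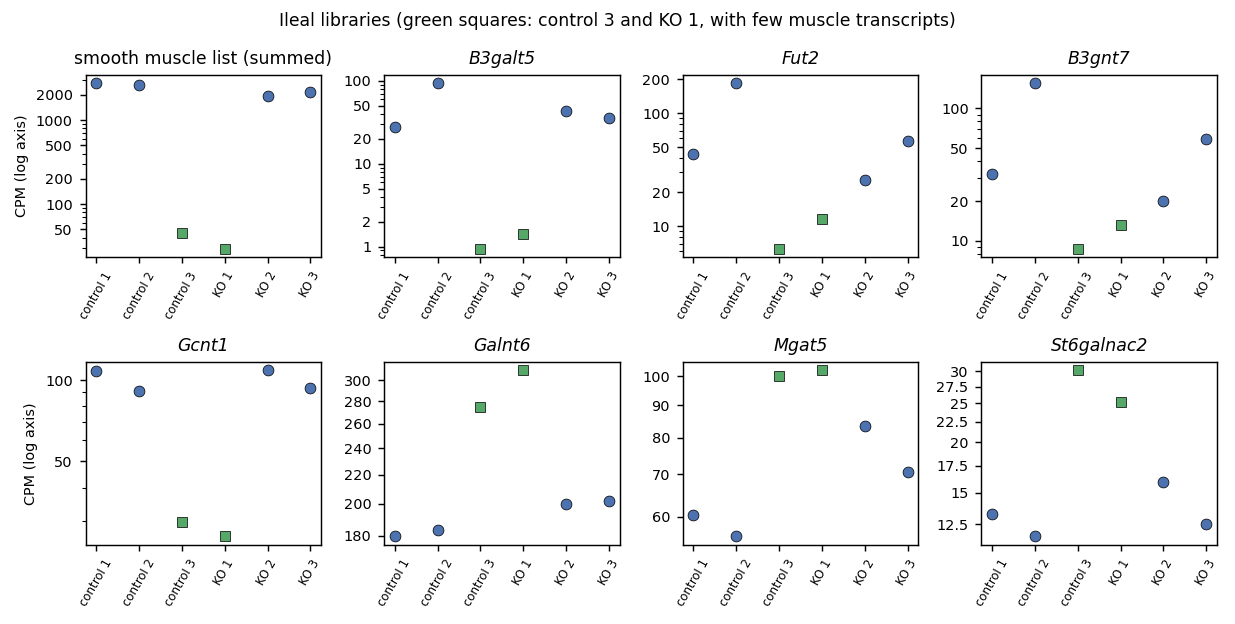
CPM on a log axis in the 6 ileal libraries for the summed smooth muscle markers and 7 members, with control 3 and KO 1 as green squares. B3galt5, Fut2, B3gnt7 and Gcnt1 are lower in these 2 than in the other 4, and Galnt6, Mgat5 and St6galnac2 are higher.

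The comparison of KO with control mice asked which transcripts change when the manganese importer is deleted in epithelium. No member passed an edgeR adjusted p of 0.1 over both tissues, in ileum, in colon or in the difference between the tissues, and 0% of all 16558 genes did. Slc39a8, the deleted gene, is among those that did not pass. Of the 71 members, 4 had an unadjusted p under 0.05 over both tissues (5.63%, against 3.87% of all genes), 1 in ileum (1.41%, against 1.52%), 1 in colon (1.41%, against 2.33%) and 0 for the difference (0%, against 1.02%). DESeq2 and limma-voom called 0 members in each of these comparisons as well. KO and control libraries did not overlap in ileum for 3 members higher and 1 lower in KO mice (2.13% and 1.57% of all genes, 3.7% together), and in colon for 10 higher and 4 lower (6.98% and 5.85%, 12.8% together). In both tissues they did not overlap for 1 member, Mgat4b (0.411% of all genes). The 95% interval of the log2 difference over both tissues reached 0.37 to either side at the median, and lay within -1 to 1 for 55 members and within -2 to 2 for all 71. In ileum alone 47 and in colon alone 43 intervals lay within -1 to 1, and for the remaining members a larger change lay inside the interval.

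**Figure D5:**
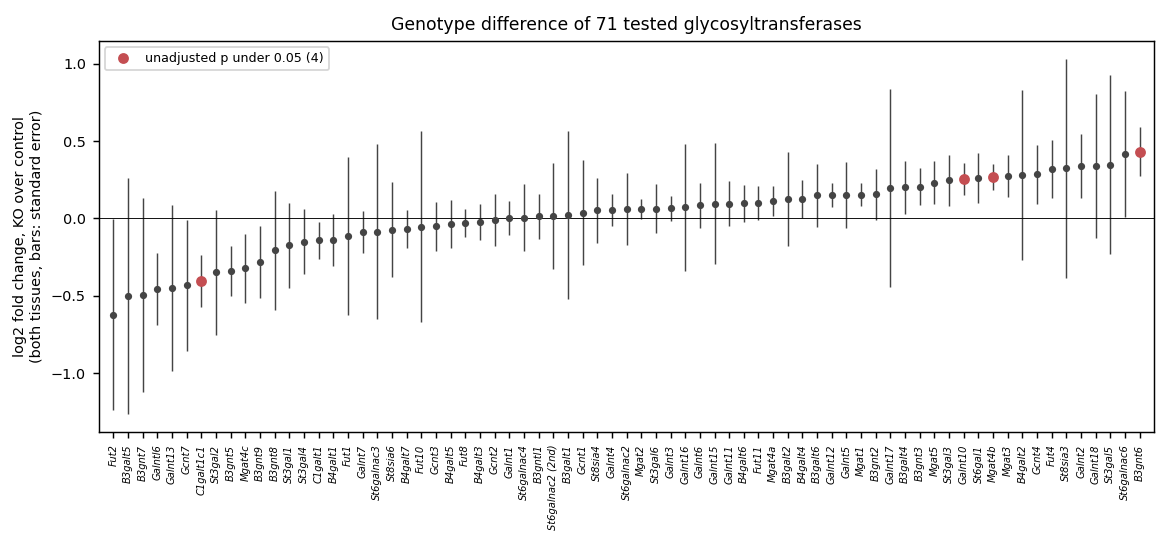
The log2 fold change of KO over control mice over both tissues (y axis, standard error as bars) for 71 members in order of size (x axis). The 4 members with an unadjusted p under 0.05 (red) lie between -0.41 and 0.43, and none passed the adjusted threshold.

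The 5 members with the smallest unadjusted p are given as values, all at an edgeR adjusted p of 0.998. Mgat4b was at 65.0, 85.6 and 88.7 CPM in ileum of control and 93.5, 95.3 and 99.6 in ileum of KO mice, and at 142, 142 and 150 in colon of control and 186, 164 and 174 in colon of KO mice. Its KO libraries were all above the control libraries of the same tissue, which 0.236% of all genes also showed in this direction, and the log2 difference was 0.27 ± 0.08 (95% interval 0.10 to 0.43, exact permutation p = 0.005). B3gnt6, whose values stand above, differed by 0.43 ± 0.16 (0.12 to 0.74, exact permutation p = 0.025), with KO above control in colon and overlap in ileum.

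Galnt10 was at 59.0, 60.9 and 75.3 CPM in ileum of control and 100, 69.7 and 74.3 in ileum of KO mice, and at 85.2, 79.5 and 91.9 in colon of control and 98.6, 95.2 and 98.8 in colon of KO mice. The ileal groups overlap and the colonic ones do not, and the log2 difference was 0.26 ± 0.10 (0.06 to 0.45, exact permutation p = 0.03). C1galt1c1 was at 109, 59.99 and 52.8 CPM in ileum of control and 47.6, 66.8 and 54.8 in ileum of KO mice, and at 159, 121 and 112 in colon of control and 101, 104 and 86.5 in colon of KO mice, a difference of -0.41 ± 0.17 (-0.74 to -0.08, exact permutation p = 0.07). B3gnt5, the enzyme that starts lacto-series glycolipids, was at 4.33, 4.44 and 4.72 CPM in ileum of control and 3.88, 3.91 and 3.13 in ileum of KO mice, and at 4.45, 4.46 and 3.72 in colon of control and 2.64, 2.80 and 4.32 in colon of KO mice, a difference of -0.34 ± 0.16 (-0.66 to -0.02, exact permutation p = 0.03). These permutation p-values are unadjusted for the choice of 5 among 71, and they hold only if ileal and colonic libraries come from different mice. The interval of B3gnt5 was negative throughout, although its unadjusted edgeR p was 0.0584.

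Galnt2 had the only unadjusted p under 0.05 in ileum, at a log2 difference of 0.67 ± 0.28 (adjusted p = 1 in edgeR). Galnt2 was at 17.6, 28.5 and 29.5 CPM in control and 35.8, 43.9 and 41.0 in KO mice. It shares 90% of its exon bases with the readthrough gene Gm20388, and with both counts added the groups were at 33.8, 39.7 and 36.7 and at 37.0, 44.3 and 49.0 CPM, with a log2 difference of 0.24 ± 0.13 (edgeR adjusted p = 1) and overlapping groups. Fut2 had the lowest estimate over both tissues, -0.62 ± 0.62 (95% interval -1.83 to 0.59).

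Other genes of the pathway were counted on lists, to be read beside the 16.2% of all genes higher and 19.6% lower in colon of control mice and the 17.1% and 20% in KO mice. Of 19 genes that supply sugar nucleotides, 8 were higher and 3 lower in colon of control mice, and 5 and 4 in KO mice. Cmah, which turns CMP-N-acetylneuraminic acid into its N-glycolyl form, was at 3.02 to 4.26 CPM in ileum and 18.5 to 58.9 in colon, a log2 difference of 2.66 ± 0.30 (edgeR adjusted p = 5.61e-05) in control and 3.50 ± 0.30 (8.81e-06) in KO mice. Gfpt2, of the hexosamine pathway, was near the floor, at 0 to 0.70 CPM in ileum and 0.61 to 1.59 in colon. It was higher by 2.56 ± 0.90 (0.053) in control mice and at 1.16 ± 0.82 (0.315) in KO mice. Uap1l1 and Gmds, the latter an enzyme of GDP-fucose synthesis, were lower by -1.50 ± 0.19 (0.000124) and -1.19 ± 0.34 (0.0216) in control mice. Of 9 sugar nucleotide transporters, 2 were higher and 3 lower in each genotype. Slc35a1, the CMP-sialic acid transporter, was at 22.3 to 29.0 CPM in ileum and 95.7 to 123 in colon, by 2.11 ± 0.13 (6.54e-07) and 2.07 ± 0.13 (7.59e-07). Slc35d1, which carries UDP-glucuronic acid and UDP-GalNAc, was higher by 2.35 ± 0.19 (4.28e-06) and 2.45 ± 0.19 (3.23e-06), and Slc35c2 and Slc35d2 were lower by -1.36 ± 0.16 (7.51e-05) and -0.91 ± 0.21 (0.00715) in control mice.

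N-glycan transfer and trimming went mostly down, with 11 of 15 genes lower and 2 higher in colon in each genotype. Dad1 and Stt3a, subunits of the oligosaccharyltransferase, were lower by -1.01 ± 0.15 (edgeR adjusted p = 0.000395) and -0.97 ± 0.12 (0.000142) in control mice, and the mannosidases Man1c1 and Man2a2 were higher by 1.80 ± 0.39 (0.00516) and 0.81 ± 0.28 (0.0465). Of 20 tested genes of other terminal modification, 8 were higher and 5 lower in control and 7 and 4 in KO mice. Abo, the blood group transferase, was at 2.35 to 4.77 CPM in colon and listed at 0 in 5 of 6 ileal libraries. A4gnt, which caps gastric-type mucins, was higher in colon by 2.13 ± 0.65 (0.0303), and Gal3st2, a galactose sulfotransferase, and B4galnt4 were lower by -2.45 ± 0.30 (0.000102) and -2.12 ± 0.34 (0.000832).

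Among 9 tested mucins, 3 were higher and 2 lower in colon of control mice, and 4 and 2 in KO mice. Muc2, the secreted mucin of goblet cells, was at 1262 to 1673 CPM in ileum and 2305 to 4477 in colon, by 1.001 ± 0.20 (edgeR adjusted p = 0.00356) and 1.40 ± 0.21 (0.000406), and Muc3a was higher by 1.44 ± 0.18 (0.000117). The membrane mucins Muc13 and Muc3 were lower by -1.26 ± 0.38 (0.0276) and -0.58 ± 0.17 (0.0278) in control mice. Of 7 manganese and ion transporters of the Golgi and of the cell surface, 2 were higher and 1 lower in each genotype: Slc30a10, a manganese exporter, by 2.43 ± 0.31 (0.000149) and Slc39a8 by 1.61 ± 0.26 (0.000707) in control mice, and Tmem165, the Golgi manganese transporter, by -0.55 ± 0.12 (0.00455). No gene of these 6 lists passed the edgeR adjusted threshold between KO and control mice over both tissues. Slc39a8, the deleted gene, is on one of the lists and did not pass either (edgeR adjusted p = 0.382, DESeq2 1.25e-05). A change of its size can thus be missed by this test.

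Marker lists of the cells that a mucosal sample can hold differed between tissues as well. Of all genes, 16.2% were higher and 19.6% lower in colon of control mice, and 17.1% and 20% in KO mice. In control mice, goblet cell markers were higher for 5 and lower for 5 of 11, Paneth cell markers lower for 8 of 9, ileal enterocyte markers lower for 8 of 8 and colonic epithelium markers higher for 6 and lower for 1 of 7, where B3gnt6, one of the 6, is itself a glycosyltransferase counted above. Smooth muscle, stroma and endothelium, and enteric neuron and glia lists had 0 of 8, 0 of 8 and 0 of 9 genes past the threshold in control mice, and 0, 1 and 5 higher in KO mice. B and plasma cell markers were lower in colon for 3 of 8 and markers of T cells and macrophages for 6 of 9 in both genotypes. The part of these shifts in the levels of the glycosyltransferases was not tested, and no marker list had a gene past the adjusted threshold between the genotypes over both tissues.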

How the data were processed

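RNA-seq of 12 mucosal libraries was analysed from 1 table of expected counts that the authors deposited, estimates of reads per gene that are not normalized and need not be whole (93.7% were). STAR and mm10 are named in the submitters' notes, and the study's Reporting Summary adds UMI-tools and FeatureCounts. The tool that made the estimates and the strand setting are not given in the sources used here. Per the labels, tissue, genotype and replicate number were read for each library. Ileal columns carry a shorter name than their titles. Whether ileal and colonic libraries share mice is not stated, and all were taken as independent. Nothing says that the p-values cover more than the spread between these mice.

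Expected counts were rounded, 92 spike-in rows (0 counts) were left out, filterByExpr with 4 groups kept 16558 genes, and edgeR 4.0.16 (R 4.3.3) with TMM factors and glmQLFTest gave p-values adjusted by the Benjamini-Hochberg method, with a threshold of 0.1. A model of 4 group means gave effects within tissue or genotype and their difference, and tissue plus genotype gave the effect over both tissues. SE is the log2 fold change divided by the square root of F, and intervals use 1.96 SE. They do not allow for the limited degrees of freedom of the edgeR test and are narrower than its own intervals would be. CPM uses TMM-scaled library sizes. TPM uses merged exons of GENCODE M21, to which 53620 gene identifiers were paired. Permutation tests used log2(CPM + 0.5), and 3 libraries against 3 in one tissue allow no exact p below 0.1. The same limit would apply over both tissues if these share mice. Depth was 16749138 to 27903083 counts, and members at 0 have no more than 3 counts as their limit, for counting error only.

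Members, lists and rules were chosen with earlier results of these data known. Named are the targeted gene, the 5 members with the smallest genotype p, the 24 members (mean CPM of at least 1) with the largest difference among those called between tissues in both genotypes, the member with the highest TPM per step and tissue, and members whose tissue call changes without ileum control 3 and KO 1. From each pathway list come the 2 largest called changes each way. Alternatives were DESeq2 1.42.0, limma-voom 3.58.1, other scaling, filters, no rounding, a threshold of 0.05, replicate blocks, fewer libraries and a muscle score as a term. The steps were tested on simulated data. Figures used matplotlib 3.10.9 in Python 3.11.15.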

Additional observations from a re-analysis of the deposited data

How the results depend on the processing

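In every alternative, 0 members passed between KO and control mice, over both tissues, in ileum, in colon and in the difference. Counts over all genes moved from 0: over both tissues to 4 with DESeq2, 1 with limma-voom, 5 without the 2 ileal libraries with few muscle transcripts, 3 with the muscle score and between 0 and 1 when single libraries were left out. In ileum they were 2, 1, 3, 1 and again 0 to 1 in the same order, in colon 1 with the 6 libraries of the comparison alone, and for the difference 1 with DESeq2. Members past the threshold between tissues ranged from 25 to 40 in control mice (27 to 37 with single libraries left out) and from 30 to 43 in KO mice (28 to 42). Single values of the 24 regional members kept their side of the threshold in 1243 of 1296 fits and direction in all of them; the 53 others concern B3galt5, Galnt15, St6galnac2 (second locus), C1galt1c1 and B3gnt7. Upper-quartile factors moved the median log2 difference of all genes between tissues to 0.12 in control and 0.14 in KO mice, and library size alone to 0.24 and 0.29, from 0.02 and 0.01.

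Whether replicate numbers pair libraries of the same mouse could not be told. Deviations of 18 same-numbered pairs correlated between -0.73 and 0.38, with 6 pairs over 0.1, but these include control with KO libraries, which cannot share a mouse. Ileum and colon of the same number correlated at -0.02, 0.17 and -0.06 in control mice and at 0.22, 0.08 and 0.30 in KO mice. Differently numbered pairs were not compared. With the replicate block, 0 members passed between genotypes in each comparison, and 30 in control and 33 in KO mice passed between tissues. With a replicate block within genotype 25 and 41 members did, and the count over all genes in control mice fell from 5940 to 3692; the cause was not tested. Adding the readthrough counts was chosen after seeing the data. Depth limits the members below 1 CPM.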
